A study of Danio rerio with 6 samples.

Results

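Cells regulate their sterol supply through the sterol regulatory element binding proteins (SREBPs), membrane-bound transcription factors that wait in the endoplasmic reticulum. In mammals the escort protein SCAP senses sterol in that membrane. When sterol is scarce, SCAP carries the SREBP to the Golgi, where site-1 and site-2 proteases release the active factor, and when sterol is plentiful INSIG proteins hold the complex back. The freed factor raises the genes of sterol synthesis, the LDL receptor that takes up lipoprotein cholesterol, and its own gene. The 6 genes chosen for these roles by name were srebf1 and srebf2 for the transcription factors, scap for the escort, insig1 for the anchor, ldlra for an LDL receptor and stard4 for a soluble sterol carrier. The deposited table of 11218 genes held rows for 4 of them, srebf2, scap, ldlra and stard4, whereas srebf1 and insig1 were not analysed here.

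The heads were those of zebrafish embryos (Danio rerio) aged 48 hours post fertilization, either scarb2a mutants (labelled scarb2a mut) or their wild type siblings (labelled wt). scarb2a encodes a homologue of the lysosomal membrane protein LIMP-2, and the labels give neither the allele nor its lesion. In both genotypes the live cells were sorted for red fluorescence from TgBAC(scar2ba:KalTA4; UAS-mKate2), spelled as in the series' text, in which a bacterial artificial chromosome drives the KalTA4 activator and so mKate2. The sorted population is thus every head cell type in which that transgene is on. Each library was made from 5000 cells of a pool of 50 heads, with wild type replicates 1, 3 and 4 and mutant replicates 1, 2 and 3, which the labels call biological replicates.

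Counts recovered from the table came to between 1560238 and 2086990 per library. The mutated gene itself gave no check of the labels, with 7 counts over the wild type libraries and 12 over the mutant ones, and scarb2a values overlapped (exact permutation test, two-sided, p = 0.7). The mutant libraries also differed in markers of cell types that the gate could hold. In the counts that follow, higher and lower mean called by the limma test given below. Over all genes tested it called 10.9% higher and 8.5% lower. Of 9 mesenchyme markers tested 8 were higher, and their summed level ran from 1263 to 1610 normalized counts over the wild type libraries and from 3109 to 3712 over the mutant ones. All 3 epidermal markers tested were higher, with sums of 1397 to 2233 against 2846 to 3286, and 2 of 4 endothelial markers were higher, with sums of 23.1 to 45.8 against 72.4 to 94.2. All 7 lens markers tested were lower, with sums of 1990 to 2697 against 15.4 to 55.9. Of 11 neuronal markers 5 were lower and none higher, with sums of 11790 to 12590 against 9926 to 10240, and of 10 radial glia markers 6 were lower and 2 higher, with sums of 4548 to 5051 against 3572 to 3804. The 1 macrophage marker tested was not called, with sums of 3.5 to 5.4 against 3.1 to 11.8. Of 12 tested genes of heat shock and the immediate early response, both of which dissociation can induce, 10 were higher, with sums of 5048 to 5853 against 8972 to 10030. Sums are over all markers with a row, also those below the filter on low values, and no such marker was at 0 in every library of a genotype. The part of these shifts in the results below was not tested.

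The comparison asked whether messages of the SREBP control system differed between mutant and wild type cells. srebf2, the transcription factor gene, and stard4, the sterol carrier gene, rose in the mutant, srebf2 to 2.43 times and stard4 to 1.99 times the wild type mean. ldlra, the LDL receptor gene, was at 2.55 times the wild type mean but rested on few counts and missed the threshold, and scap, the escort gene, was at 0.928 times. The test was limma on log2(value + 1) over the 9647 genes with a mean value of at least 5, with Benjamini-Hochberg adjustment over all of them and a threshold of 0.05. It called 2 of the 4 genes, both higher. Over all genes it called 10.9% higher and 8.5% lower (1053 and 820 genes), or 791 higher and 1303 lower when library totals were made equal, which moved the median difference over all genes from -0.01 to -0.13. In bulk samples, more RNA per cell and more cells of a type that express a gene cannot be told apart.

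**Figure D1:**
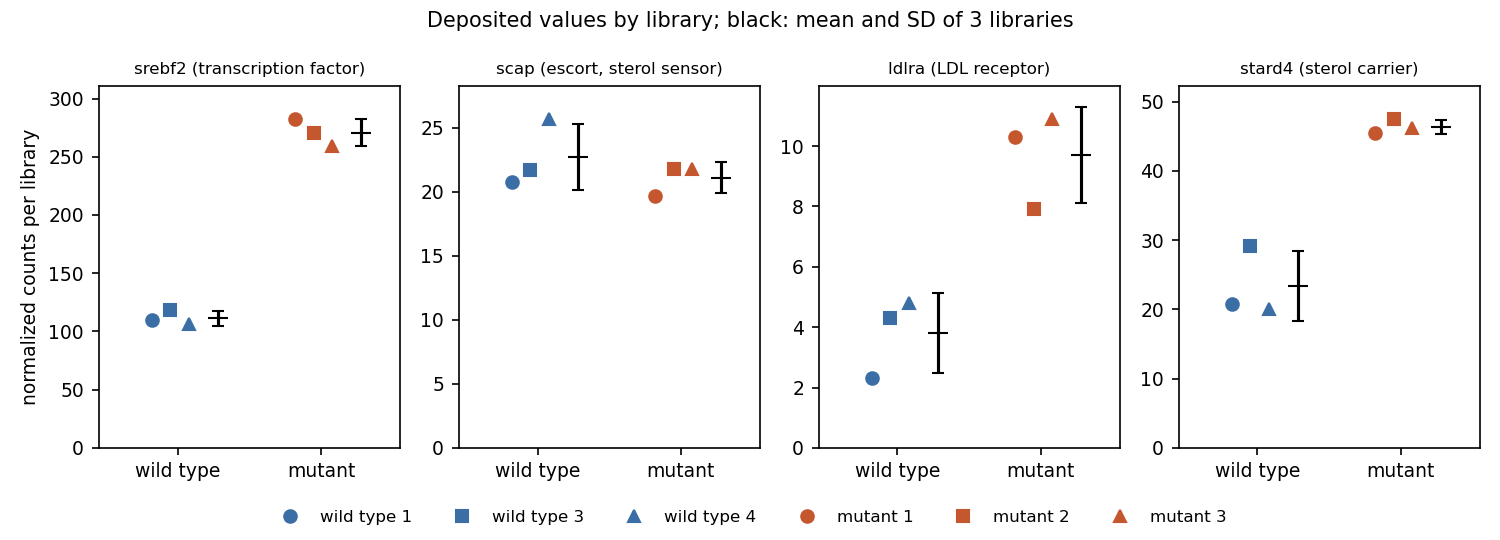
Normalized counts (y axis, from 0) of srebf2, scap, ldlra and stard4 in each of 3 wild type (blue) and 3 mutant (red) libraries, with the replicate shown by the symbol and the mean and SD in black. Every mutant library lies above every wild type library for srebf2, ldlra and stard4, while the scap values overlap.

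srebf2 encodes the SREBP that in mammals chiefly drives sterol synthesis and LDL receptor genes. Its values were 109.7, 118 and 106 normalized counts in wild type replicates 1, 3 and 4. They were 282.5, 270.4 and 259.3 in mutant replicates 1, 2 and 3. The groups did not overlap, and the lowest mutant library was well above the highest wild type one. The means were 111.2 ± 6.15 and 270.7 ± 11.6 (SD, n = 3), based on 336 and 832 counts. The log2 difference was 1.28 ± 0.101 (SE), with a 95% interval of 1.06 to 1.49 (limma adjusted p = 2.40e-08). In the order of p values srebf2 stood at place 47 of 9647 genes, and 96.8% of genes had a lower difference. Out of every 1000000 recovered counts srebf2 took 60.9, 68.2 and 63.2 in the wild type libraries and 149, 142 and 142 in the mutant ones. Each library had its own exact 95% binomial interval. Their outer bounds were 49.3 and 82.2 over the wild type libraries and 126 and 167 over the mutant ones. These intervals cover counting error only.

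scap encodes the escort of the SREBPs. Its values were 20.8, 21.7 and 25.7 normalized counts in wild type replicates 1, 3 and 4 and 19.7, 21.8 and 21.8 in mutant replicates 1, 2 and 3. The groups overlapped, with 2 mutant values between the lowest and the highest wild type value. The means were 22.73 ± 2.61 and 21.1 ± 1.21 (SD, n = 3), based on 70 and 65 counts. The log2 difference was -0.10 ± 0.231 (SE; limma adjusted p = 0.820). Its 95% interval, -0.58 to 0.39, ended below the lower bound of the srebf2 interval and also below that of stard4. The values do not exclude changes of scap within that interval.

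ldlra encodes a receptor that takes up low density lipoprotein. Its values were 2.3, 4.3 and 4.8 normalized counts in wild type replicates 1, 3 and 4 and 10.3, 7.9 and 10.9 in mutant replicates 1, 2 and 3. All 3 mutant libraries were above all 3 wild type ones. Behind them stood 2, 4 and 6 counts in the wild type and 10, 8 and 12 in the mutant libraries. The means were 3.8 ± 1.32 and 9.7 ± 1.59 (SD, n = 3), and the ratio of summed counts was 2.46, with an exact 95% interval of 1.23 to 5.29 that covers counting error only. The log2 difference of 1.19 ± 0.432 (SE), with a 95% interval of 0.28 to 2.09, did not pass (limma adjusted p = 0.0610). It was called with a pseudocount of 5 (0.75, adjusted p = 0.0498) and by limma without a mean-variance trend (adjusted p = 0.0354). Over all 16 alternatives its adjusted p ran from 0.0354 to 0.275. Its wild type mean was below the filter at 5, which ldlra passed only through its mutant libraries.

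stard4 encodes a small cytosolic protein that in mammals carries cholesterol between membranes and is itself raised when sterol is low. Its values were 20.8, 29.2 and 20.1 normalized counts in wild type replicates 1, 3 and 4 and 45.5, 47.5 and 46.2 in mutant replicates 1, 2 and 3. The mutant libraries lay close together and above the wild type ones, among which replicate 3 was the highest. The means were 23.37 ± 5.06 and 46.4 ± 1.01 (SD, n = 3), based on 70 and 143 counts. The log2 difference was 0.98 ± 0.201 (SE), with a 95% interval of 0.56 to 1.40 (limma adjusted p = 0.00168), at place 634 of 9647 by p. In all, 3 of the 4 genes had every mutant library above every wild type one, against 17.9% of all genes tested. Of these 3, ldlra passed the filter at 5 only through its mutant libraries, so it adds no support to that count.

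**Figure D2:**
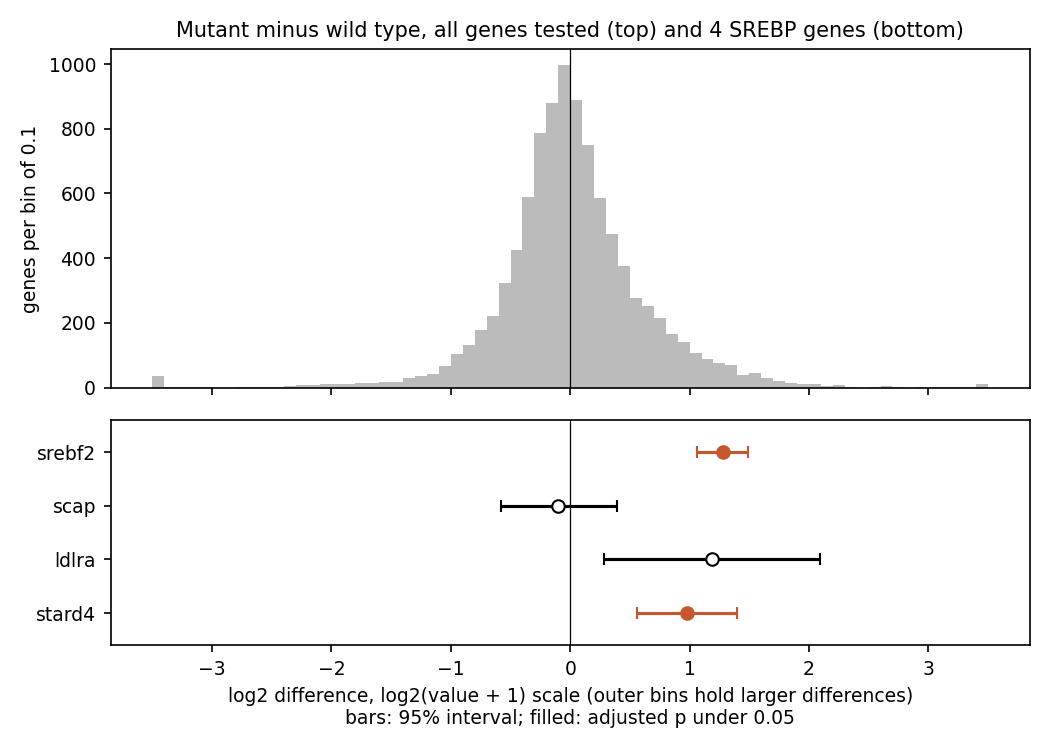
The top panel counts genes by log2 difference (x axis, mutant minus wild type, 9647 genes), and the bottom panel gives the 4 genes with 95% intervals, filled where the adjusted p is under 0.05. srebf2, ldlra and stard4 lie at 1.28, 1.19 and 0.98 on the right flank, and scap at -0.10 lies near the centre.

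The 4 genes were next compared with one another through their ratios within each library, on log2(value + 1), where the scaling of a library matters only through the added 1 and so mostly for the low values of ldlra. A ratio is used here only to compare libraries, since the levels of different genes are not on a common scale. The log2 ratio of srebf2 to scap was 2.34, 2.39 and 2.00 in wild type replicates 1, 3 and 4 and 3.78, 3.57 and 3.51 in mutant replicates 1, 2 and 3. The mutant mean was higher by 1.37, with no overlap, so the factor's message was higher relative to that of its escort in every mutant library. The ratio of scap to stard4 differed by -1.08 and that of scap to ldlra by -1.29, both without overlap. The ratio of srebf2 to stard4 was higher by 0.30 in the mutant, again without overlap, with 2.34, 1.98 and 2.34 in wild type and 2.61, 2.48 and 2.46 in mutant libraries. Each of these 4 pairs gave p = 0.1 in an exact permutation test (two-sided), the smallest that 3 against 3 libraries allow, and 0.15 adjusted over the 6 pairs compared. None could therefore pass 0.05. The ratios of srebf2 to ldlra and of ldlra to stard4 overlapped between genotypes, with differences of 0.09 (exact permutation p = 0.8) and 0.21 (p = 0.6), and neither kept its sign under every alternative. At the counts of ldlra a difference between its change and those of srebf2 and stard4 was not detectable.

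**Figure D3:**
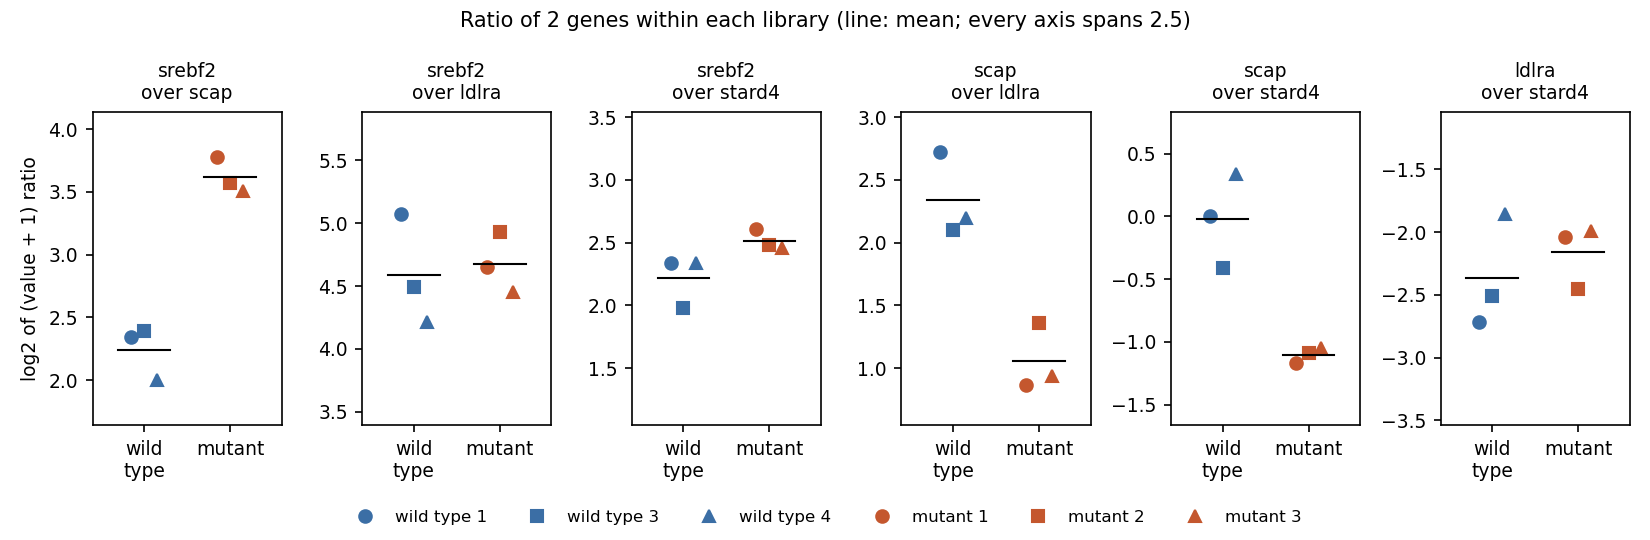
Log2 ratio of (value + 1) of 2 genes within each library (y axis, each panel spanning the same range) for the 6 pairs, with wild type in blue, mutant in red and the group mean as a line. The ratios of srebf2 to scap and of srebf2 to stard4 are higher in all 3 mutant libraries, those of scap to ldlra and to stard4 are lower, and the other 2 pairs overlap.

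The other listed genes carry, cleave or degrade SREBPs and their partners. Of these 25 genes 19 were tested, 4 were called higher and none lower, where over all genes 10.9% were called higher and 8.5% lower, with a median log2 difference of 0.00 against -0.01 for all genes. For 5 of the 19 every mutant library was above every wild type one, against 17.9% of all genes tested. For 5 every mutant library was below, a count given without the share over all genes and so no result about the list. With equal library totals 1 was higher and 4 were lower, where over all 9674 genes then tested 791 were higher and 1303 lower. mbtps2, the site-2 protease gene, had means of 26.07 ± 4.86 in wild type libraries and 26.5 ± 6.80 in mutant libraries (SD, n = 3; limma adjusted p = 0.992), whereas mbtps1 and insig2 were not analysed here. sec23a, a subunit of the COPII coat that buds vesicles from the endoplasmic reticulum, rose from 81.87 ± 7.36 to 122.6 ± 12.2 (SD, n = 3), by 0.58 on the log2 scale (limma adjusted p = 0.00302). sec24a and sec24d, cargo-binding subunits of the same coat, rose by 0.34 and 1.30 (limma adjusted p = 0.0441 and 0.0409). For sec24d the normalized counts were 3.5, 5.4 and 2.4 in wild type libraries and 13.5, 8.9 and 9.1 in mutant libraries. Its wild type mean of 3.767 was below the filter at 5, which sec24d passed only through its mutant libraries. Other sec23, sec24 and sar1 genes of the list were not called. Of these, sec24b and sar1aa changed by -0.28 and -0.98 (limma adjusted p = 0.144 and 0.112), with every mutant library below every wild type one. The values of sec23b, sec24c and sar1b overlapped between genotypes. rnf145b, whose mammalian relative is a sterol-responsive ubiquitin ligase, rose by 0.57 (limma adjusted p = 0.0295). Its paralogue rnf145a went the other way, by -0.85, and was not called (limma adjusted p = 0.0708). For rnf145a every mutant library was below every wild type one.

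The last 3 of these calls did not hold in every alternative. sec24a lost its call without any 1 library other than mutant replicate 1 (limma adjusted p up to 0.156) and with equal totals (0.195). sec24d lost it without any 1 library other than wild type replicate 3 (up to 0.160) and with equal totals (0.0536). rnf145b lost it when replicate 1 or 3 of either genotype was left out (up to 0.170) and with equal totals (0.0815). sec23a kept its call in each of those settings and lost it in limma without a trend (0.0526).

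Most genes of sterol synthesis, the main targets of SREBP-2 in mammals, were higher in the mutant libraries too. Of 26 listed genes 17 were tested, 13 were called higher, against 10.9% of all genes, and none lower, with a median log2 difference of 1.59. Members from the middle and end of the pathway were among them. nsdhl, which removes methyl groups from sterol precursors, had normalized counts of 5.8, 10.8 and 5.6 in wild type libraries and 44.5, 42.6 and 29.9 in mutant libraries, a difference of 2.28 ± 0.297 (SE; limma adjusted p = 1.50e-05). hsd17b7, a sterol ketone reductase gene, rose from 8.633 ± 0.603 to 36.63 ± 5.81 (SD, n = 3), and fdps, which makes farnesyl diphosphate, from 56.2 ± 13.3 to 129.5 ± 10.9. The 2 genes for HMG-CoA reductase, the rate-limiting enzyme, gave different results. hmgcra rose from 4.3 ± 0.985 to 15.1 ± 3.90 (SD, n = 3; difference 1.59, limma adjusted p = 0.00577). hmgcrb was at 40 ± 9.34 and 50.6 ± 5.26 (SD, n = 3; difference 0.35, limma adjusted p = 0.216), with overlapping groups. Whether the 2 differences differ from each other was not tested. Among the called genes hmgcra, lss and sqlea had wild type means of 4.3, 4.3 and 3.267. They passed the filter at a mean of 5 only through their mutant libraries. Without that filter 13 of the 17 genes were again called higher. With a filter at a mean of 20, 12 genes were tested and 9 called higher, and the median was 0.93. Over all 5873 genes then tested 861 were higher and 700 lower. A pseudocount of 5 gave a median of 1.16 for the list. The list was chosen with earlier results of these data known, and the mesenchymal markers described above had a median difference of 1.44.

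In the list of lipoprotein uptake and sterol movement, which leaves out ldlra and stard4 themselves, 13 of 29 genes were tested, 2 were called higher and none lower, with a median of -0.01. That count lies near the 10.9% called higher over all genes, so it is no result about the list, and the 2 genes are given for their own values. ldlrb, the paralogue of ldlra, had normalized counts of 19.6, 22.7 and 16.9 in wild type libraries and 44.5, 30.7 and 31.7 in mutant libraries, a difference of 0.81 ± 0.227 (SE; limma adjusted p = 0.0164). Leaving out wild type replicate 4 (adjusted p = 0.0651) or mutant replicate 1 (0.101) ended its call. ldlrap1a, which encodes an adaptor for receptor internalization, was at 19.6, 18.4 and 12.9 in wild type and 31, 30.7 and 39.9 in mutants, a difference of 0.97 ± 0.239 (SE; limma adjusted p = 0.00712). All 3 mutant libraries exceeded all 3 wild type libraries for both genes, as they did for ldlra. The same held for 17.9% of all genes tested, and both genes are named because they were called higher. DESeq2 on the recovered counts called neither gene (adjusted p = 0.105 for ldlrb and 0.0501 for ldlrap1a).

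Genes of fatty acid synthesis respond more to SREBP-1 in mammals. Of 20 listed genes 8 were tested, 3 rose and 2 fell, where over all genes 10.9% were called higher and 8.5% lower, and the median was 0.58. fads2, a fatty acid desaturase gene, rose from 14.93 ± 2.11 to 51.47 ± 6.23 normalized counts (SD, n = 3), by 1.72 (limma adjusted p = 8.57e-06). mid1ip1b rose by 0.60 and mid1ip1l changed by -0.69 (limma adjusted p = 0.00136 and 0.00572), both of them relatives of a mammalian regulator of acetyl-CoA carboxylase. aclya, an ATP citrate lyase gene, rose by 0.56 (limma adjusted p = 0.0118), and scdb, a stearoyl-CoA desaturase gene, changed by -1.60 (0.0391). The scdb values overlapped between genotypes, with 8.1, 11.9 and 12.0 normalized counts in wild type and 1.0, 2.0 and 8.2 in mutant libraries. Its mutant mean of 3.733 was below the filter on low values, which scdb passed only through its wild type libraries. The aclya call was lost without mutant replicate 1 (adjusted p = 0.0507). Leaving out any 1 library other than wild type replicate 1 or mutant replicate 3 ended that of scdb (up to 0.148), and its value was -1.13 without mutant replicate 1. DESeq2 on the recovered counts called neither aclya nor scdb (adjusted p = 0.112 and 0.215). fasn was not analysed here.

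Genes of the liver X receptor and of sterol efflux had differences in both directions. Of 12 listed genes 6 were tested, 1 was called higher and 1 lower, with a median of -0.10. Over all genes 10.9% were called higher and 8.5% lower, so these counts are no result about the list. nr1h3, the receptor gene, had means of 9.833 ± 2.01 in wild type libraries and 8.433 ± 0.611 in mutant libraries (SD, n = 3; limma adjusted p = 0.774). abca1a, a cholesterol exporter gene, was called lower and ch25h, which makes a hydroxycholesterol, higher, and both calls were lost without wild type replicate 1 (adjusted p = 0.0866 and 0.110) or 4 (0.0561 and 0.172), that of abca1a also without mutant replicate 1 (-0.76, 0.103) and that of ch25h without mutant replicate 2 (0.156) or 3 (0.211).

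**Figure D4:**
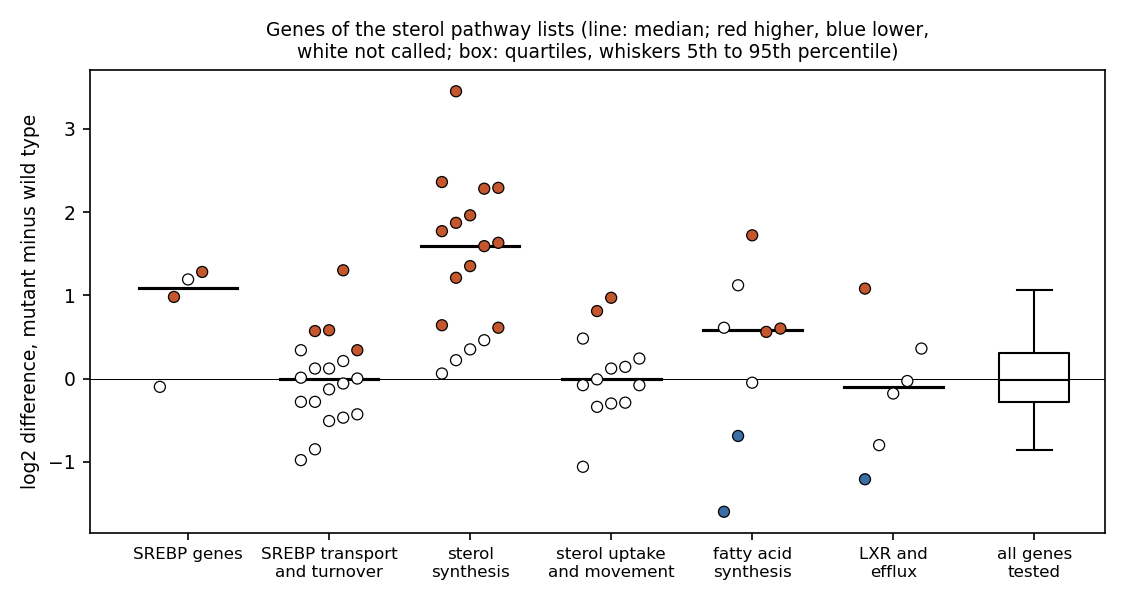
Log2 difference between mutant and wild type (y axis) of the tested genes of each list, red where called higher, blue where called lower and white where not called, with list medians as lines and all 9647 genes as a box. The sterol synthesis genes have a median of 1.59, whereas the SREBP transport and turnover genes centre at 0.00.

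Among the 5872 other genes with a mean of at least 20, those whose values followed srebf2 most closely over the 6 libraries were sav1, foxc1a, clspn and eif3s10 (Pearson r of 0.9994, 0.998, 0.9969 and 0.9958 on log2(value + 1)). For stard4 they were zgc:112496, tmem209, wu:fc21g02 and plod1a (0.9981, 0.9917, 0.9893 and 0.9889). The median r with srebf2 was -0.09 over all these genes and 0.91 over 12 sterol synthesis genes, whose own r ran from 0.13 to 0.99. Over 5 fatty acid synthesis genes it was 0.93, with a range of -0.83 to 0.98, so a high median was not particular to sterol synthesis. It was 0.03 for SREBP transport and turnover, 0.02 for uptake and movement, and 0.23 for efflux. The 6 points share the genotype difference, so such an r mostly orders genes by how cleanly the genotypes part. With the genotype means removed, the closest genes were others: dnajc19, nlk1, mad1l1 and slc35g2a for srebf2 (0.9959, 0.9886, 0.9865 and 0.9824) and cog4, rhocb_1, inip and mtx1b for stard4 (0.996, 0.9888, 0.9887 and 0.9878). These are the highest of 5872 values over 6 libraries and are given as a description.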

How the data were processed

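RNA of sorted head cells was turned into libraries of transcript 3′ ends with a MARS-seq protocol adapted, per the labels' protocols, to bulk samples. The genome build was danRer11, per the submitters' processing notes, and the sources used here do not give the aligner, the counter or the normalization tool. The deposited table holds a signal per gene and library, a normalized count: 67308 of 67308 values, or 100%, equalled a whole number of counts times the library's factor (tolerance 0.0505). In mutant replicate 2 that factor, 0.9906, was close to 1, and its counts were recovered in the same way. edgeR on the counts recovered so called 1879 genes. No source says if these are reads or molecules. The exact intervals treat counts as independent, so they cover counting error at most and not the spread between libraries. A chi-square of recovered counts, per degree of freedom, was 1.66 to 2.05 between libraries of 1 genotype and 5.50 to 7.97 across genotypes, so no library was taken for a duplicate.

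Genes whose mean was at least 5 were tested with limma, moderated along a mean-variance trend, on log2(value + 1), without covariates. That mean was over all 6 libraries, so a gene could pass through 1 genotype alone. Differences are mutant minus wild type and understate changes of low genes. Means and SDs are of deposited values. Ratios of gene pairs were tested by exact permutation. The 6 genes and all lists were chosen with earlier results of these data known. Of 112 entries in the pathway lists 73 had a row, 3 of them under an older name in the RefSeq table of GRCz12tu, which served for names only. The rule named all 4 genes with a row, the called genes of each list (where more than 6 were called, those with the 6 smallest p, of which some are given), 8 set control genes where a row existed, and the 4 most similar genes per called member; nr1h3 was named after its values were seen. Alternatives were other pseudocounts, filters, scalings and variance models, edgeR and DESeq2 on recovered counts, a replicate block and leaving out each library. Those for the list genes were added after the data had been seen. The procedure was also run on simulated data with fewer changed genes than were called here. No result rests on that run. The tools were limma 3.58.1, edgeR 4.0.16 and DESeq2 1.42.0 in R 4.3.3, and scipy 1.17.1, numpy 2.4.6, matplotlib 3.10.9 and pandas 2.3.3 in Python 3.11.15.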

Additional observations from a re-analysis of the deposited data

How the results depend on the processing

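The differences of srebf2 and stard4 kept their sign and their call in all 17 alternatives, from 1.16 to 1.32 and from 0.87 to 1.14, with adjusted p up to 0.00437 and 0.0207. scap stayed below 0 and uncalled in all 17, from -0.21 to -0.01. ldlra stayed above 0 in all 16 that could be run, and was called with a pseudocount of 5 (0.75) and without a trend (1.19); a filter at a mean of 20 removed it. srebf1 and insig1 gave no value. The count of 1873 called genes was 1007 without a trend, 1031 by DESeq2 and 1045 at an adjusted p under 0.01; the cause was not tested, other than the stricter threshold in the last. With 1 library left out it was 1424 to 1619. The srebf2 to ldlra ratio difference was -0.0066 with a pseudocount of 0.5, and -0.10 to 0.33 with 1 library left out; that of ldlra to stard4 was -0.13 with a pseudocount of 5. mbtps2 was at -0.10 with equal totals and from -0.14 to 0.23 with 1 library left out. The genotypes share only replicate numbers 1 and 3, and deviations of same-numbered libraries correlated at 0.02 and -0.05. The numbers were therefore not taken as pairs. With a replicate block the genotype difference came only from replicates 1 and 3. Wild type replicate 4 and mutant replicate 2, each alone in its block, added nothing to it. In that fit 1597 genes were called. The differences were 1.24 for srebf2, 0.87 for stard4, 1.47 for ldlra and -0.03 for scap, with no change of call among these 4. Of 26 called list genes none changed sign; 12 lost their call without a trend, 9 in DESeq2, 6 with the replicate block, 4 with equal totals and 3 to 7 with 1 library left out. Depth limits ldlra most, at 12 and 30 counts per genotype.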
